A study of Sus scrofa with 30 samples.

Results

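The S100 family comprises small calcium-binding proteins, and 13 of the 24123 probe sets on the arrays carried the symbol of one of them. A probe set belonged to the family when its only platform gene symbol began with S100 and a letter. These 13 probe sets stand for 11 genes: S100A1, S100A4, S100A6, S100A8, S100A9, S100A10, S100A11, S100A12, S100A14, S100B and S100G, with 2 probe sets each for S100A6 and S100G. The same letters also selected S100PBP, which encodes a protein that binds S100P and is no S100 protein itself, and it is given apart. Together they make 14 of the 10140 probe sets that had 1 gene symbol. The other 13983 had none or several, so the S100 genes named here are those the annotation allows. The pig gene table of RefSeq (assembly Sscrofa11.1) holds 19 genes whose symbol begins in this way, and 7 of them had no probe set with their symbol alone.

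RNA came from teats of 10 peripubertal pigs of commercial dam lines, collected at slaughter at a mean end weight of 110 kg, and each sample was labelled as epithelial or mesenchymal teat tissue. There were 6 groups of 5 arrays: epithelial tissue of inverted teats of affected animals, of normal teats of affected animals and of normal teats of non-affected animals, and mesenchymal tissue of the same 3 kinds of teat. An inverted teat is one whose tip is drawn inward, and the teats were classed by inspection and palpation. The 5 affected animals (963, 964, 1037, 1059 and 1103) had at least 1 inverted teat and gave 4 arrays each, whereas the 5 non-affected animals (950, 957, 1040, 1058 and 1109) gave 2 each. By breed, 6 animals were Large White x German Landrace, 957 and 963 were purely German Landrace, and the crosses 1103 and 1109 were Pietrain x (Large White x German Landrace). The labels give no sex and do not say how the tissues were separated, and every array measured a mixture of cells, in which fewer cells of a type and less RNA per cell cannot be told apart.

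S100 proteins carry a pair of EF-hand calcium-binding loops and act mostly as dimers that open a binding surface when calcium rises. Inside cells they bind partners such as annexins, myosin and cytoskeletal proteins. Several are also released and then bind the receptors AGER and TLR4. S100A8, S100A9 and S100A12 are abundant in neutrophils and monocytes and are known as alarm signals in inflamed mammary tissue and skin. S100A14 is known mainly from epithelia, S100A1 from striated muscle, and S100B from Schwann cells, melanocytes and adipocytes. Most of the genes lie in a cluster, and by the RefSeq gene order S100A8, S100A12 and S100A9 follow each other, as do S100A11 and S100A10.

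The values are the authors' log2 signals, on which a difference of 1 is a doubling. Because probes differ in brightness, values were compared between arrays within a probe set and never between genes. The 30th percentile of each array, which lay between 4.49 and 4.84, served as a mark for dim signals, and a probe set was tested when it exceeded that mark on at least 5 arrays of a fit. S100A1, S100A4, S100A6 (both probe sets), S100A10, S100A11, S100A14 and S100B exceeded it on all 30 arrays. S100A9 exceeded it on 19 arrays, S100A12 on 4, S100A8 on 2, and the S100G probe sets on 1 and 0. Thus 9 of the 13 probe sets were tested, and all 13 are described. S100PBP exceeded the mark on 27 arrays and was tested as well.

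One array stood apart. In epithelial tissue of the inverted teat of animal 1103, the mean of the luminal keratins KRT8, KRT18 and KRT19 was 6.75, against 9.27 to 10.66 on the other 14 epithelial arrays. On this array the smooth muscle and endothelial marker means were the highest of all epithelial arrays (10.35 and 8.61). The keratinocyte and fibroblast marker means were the lowest of them (6.03 and 10.41). S100A1 was 7.83 there, against 8.46 to 10.14 for the remaining epithelial samples, while S100B was 9.87 there and 8.21 to 9.14 elsewhere. Differences of the S100 genes that moved most without this array are given both ways. The labelled tissues also overlapped in their markers: in mesenchymal samples of normal teats the same keratin mean ranged from 2.38 to 10.65.

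Epithelial tissue was first compared with mesenchymal tissue in the normal teats of all 10 animals. S100A1 and S100A10 were lower in epithelial tissue, by 1.98-fold and 1.43-fold, and S100A14, S100B and 1 of the 2 S100A6 probe sets were higher, by 1.60-fold, 1.41-fold and 1.38-fold. Thus 5 of the 9 tested S100 probe sets passed an adjusted p of 0.05 in limma, 3 higher and 2 lower. Of all 18286 probe sets tested, 33.5% passed, 12.9% higher and 20.6% lower. The S100 genes thus moved in both directions, and with 9 probe sets nothing particular to the family is read from the share that passed. The median difference of all probe sets was -0.06.

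**Figure D1:**
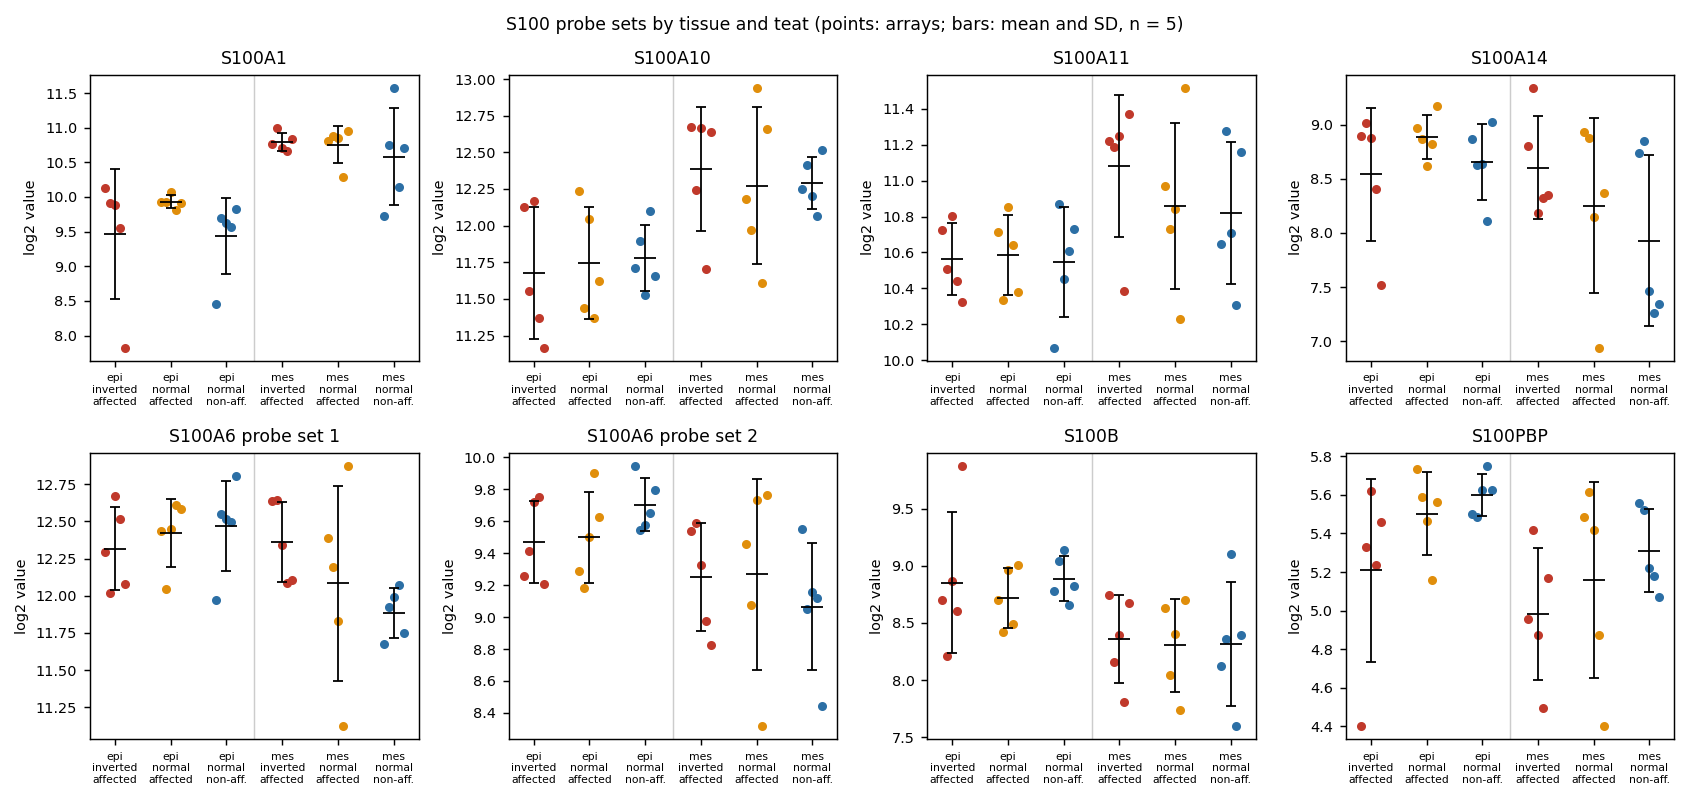
Log2 values of 7 S100 probe sets and S100PBP (vertical axes, a separate scale for each panel) in the 6 groups (horizontal axes), with epithelial groups (epi) left of mesenchymal groups (mes); points are arrays and bars are means with SD (n = 5). For S100A1 the epithelial means lie at 9.44 to 9.93 and the mesenchymal means at 10.58 to 10.79, while within each tissue the kinds of teat overlap, except for the first S100A6 probe set in mesenchymal tissue of inverted teats (12.09 to 12.64) and of non-affected animals (11.68 to 12.07).

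S100A1, which binds the ryanodine receptor and other calcium-handling proteins of muscle, showed the widest difference between the tissues among the tested S100 genes. In normal teats of affected animals it was 9.93, 9.92, 10.08, 9.81 and 9.92 in epithelial tissue and 10.80, 10.88, 10.85, 10.28 and 10.96 in mesenchymal tissue (animals 963, 964, 1037, 1059 and 1103). These 2 sets did not overlap. In non-affected animals it was 8.46, 9.69, 9.63, 9.57 and 9.83 in epithelial tissue and 9.73, 10.74, 11.58, 10.14 and 10.70 in mesenchymal tissue (animals 950, 957, 1040, 1058 and 1109). Animal 950 was low in both tissues, and its mesenchymal value fell within the range of the epithelial ones. The difference was -0.98 ± 0.20 (SE; 95% interval -1.40 to -0.57; limma adjusted p = 0.0011), with the epithelial value lower in 10 of 10 animals, by 0.48 to 1.95. Without any 1 animal the difference remained between -1.04 and -0.88 and passed the threshold. Under 9 other settings of scaling, filter and model it lay between -0.98 and -0.61 and passed in all 9.

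S100A10, the partner with which annexin A2 forms a complex at the cell membrane, was also lower in epithelial tissue. It was 12.24, 11.44, 12.05, 11.37 and 11.62 in epithelial tissue of affected animals, against 12.18, 11.97, 12.94, 11.61 and 12.66 in their mesenchymal tissue. In non-affected animals it was 11.71, 11.89, 11.53, 12.10 and 11.65 in epithelial tissue and 12.25, 12.42, 12.21, 12.07 and 12.51 in mesenchymal tissue. The tissues overlapped in range, yet 8 of 10 animals had the lower value in epithelial tissue, and the 2 exceptions (963 and 1058) differed by under 0.1. The difference was -0.52 ± 0.16 (SE; 95% interval -0.84 to -0.20; limma adjusted p = 0.015), and it passed in every leave-one-out fit. After quantile normalization it was -0.14 and no longer passed (adjusted p = 0.48).

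S100A11, which binds annexin A1, lay between 10.07 and 10.87 in epithelial tissue and between 10.23 and 11.52 in mesenchymal tissue of normal teats. Its difference was -0.27 ± 0.16 (SE; adjusted p = 0.18), with 7 of 10 animals lower in epithelial tissue. Its sign turned with the scaling, to 0.15 after quantile normalization, so no direction is given for it. S100A10 and S100A11, which are neighbours in the genome, had the highest correlation of any pair of S100 probe sets over the 30 arrays once group means were subtracted (r = 0.71). These arrays share animals and RNA samples, and the value is a description.

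S100A14 had the higher level in epithelial tissue. Across the 10 normal teats its lowest, median and highest values were 8.11, 8.85 and 9.17 in epithelial tissue and 6.94, 8.26 and 8.93 in mesenchymal tissue. Epithelial values were close together, with an SD of 0.30, whereas mesenchymal values spread widely, with an SD of 0.77. In mesenchymal tissue S100A14 was 8.93, 8.88, 8.14, 6.94 and 8.37 in affected animals (963, 964, 1037, 1059 and 1103) and 8.74, 8.85, 7.46, 7.26 and 7.34 in non-affected animals (950, 957, 1040, 1058 and 1109). The 4 highest, in animals 950, 957, 963 and 964, reached the range of epithelial tissue.

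The difference for S100A14 was 0.68 ± 0.25 (SE; 95% interval 0.17 to 1.19; limma adjusted p = 0.038), with 8 of 10 animals higher in epithelial tissue. The call was lost without any of 6 animals (1037, 1040, 1058, 1059, 1103 or 1109), with adjusted p up to 0.11, while the difference stayed between 0.55 and 0.78. The 4 animals whose mesenchymal S100A14 was highest are those numbered under 1000, and the other 6 are numbered over 1000; the labels do not say what the numbers mean. S100A14 differed between tissues by -0.02 ± 0.15 in the 4 (SD, higher in epithelial tissue in 2 of 4) and by 1.15 ± 0.55 in the 6 (SD, higher in 6 of 6), values that were computed after the data had been seen. The same mesenchymal values set the 4 apart and enter these differences, so the differences are not separate evidence. With the number range as a covariate the difference was 0.68 ± 0.20 (SE; limma adjusted p = 0.012). Each animal gave 1 array of each tissue, so this covariate could not change the difference. It does not test whether the tissue difference varies between the number ranges. In the same 4 animals the 3 luminal keratins averaged 9.15 to 10.65 in mesenchymal tissue, against 2.38 to 7.28 in the other 6. Of the luminal epithelial markers, 10 of 11 measured were higher in epithelial tissue of normal teats (median difference 2.56), beside 12.9% of all probe sets. The luminal list averaged 7.63 to 8.93 on epithelial and 3.17 to 8.95 on mesenchymal arrays of normal teats, and the part of these cells and of the number range in the S100A14 result was not tested. The order was not strict: animal 1103 had the lowest mesenchymal keratin mean, 2.38, with S100A14 at 8.37.

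S100A6, also called calcyclin, is abundant in fibroblasts and epithelia and binds CACYBP. Its brighter probe set had a lowest, median and highest value of 11.97, 12.51 and 12.80 in epithelial tissue, against 11.12, 11.96 and 12.87 in mesenchymal tissue of normal teats. All 5 mesenchymal values of non-affected animals (11.68, 11.93, 11.99, 12.07 and 11.75) lay below 4 of the 5 epithelial ones (11.97, 12.55, 12.52, 12.50 and 12.80), whereas the affected animals overlapped more. The difference was 0.46 ± 0.17 (SE; adjusted p = 0.039), higher in 8 of 10 animals, and the call was lost without any of 6 animals (957, 1037, 1040, 1058, 1059 or 1109). The second probe set gave almost the same size, 0.44 ± 0.17 (SE), but missed the threshold (adjusted p = 0.060). It passed with animal as a random block (adjusted p = 0.029). Both list 2 gene identifiers under the symbol S100A6.

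S100B was higher in epithelial tissue in 10 of 10 animals. It was 8.70, 8.42, 8.96, 8.49 and 9.0 in epithelial tissue of affected animals, against 8.63, 8.04, 8.41, 7.74 and 8.70 in their mesenchymal tissue. In non-affected animals it was 8.78, 9.04, 9.14, 8.66 and 8.82 in epithelial tissue and 8.12, 8.36, 9.10, 7.60 and 8.40 in mesenchymal tissue. The tissues overlapped in range: 3 mesenchymal values, of animals 963, 1103 and 1040, lay above the lowest epithelial one. The difference was 0.49 ± 0.16 (SE; 95% interval 0.15 to 0.83; limma adjusted p = 0.026). It lay between 0.43 and 0.54 in the leave-one-out fits and did not pass without animal 957 or 1109 (adjusted p up to 0.053).

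Markers of cells known to express S100B are given beside it. None of the Schwann cell markers tested passed (0 of 2, MBP at 0.64 and GFAP at -0.17), and the Schwann cell factor SOX10 exceeded the 30th percentile on 7 of 30 arrays. The 3 Schwann markers averaged 5.09 to 6.08 on epithelial and 5.10 to 6.28 on mesenchymal arrays of normal teats. Neither of the 2 tested melanocyte markers passed, and 2 of 2 had differences above 0 (median difference 0.20). All 7 adipocyte markers were lower in epithelial tissue (median difference -2.34), beside 20.6% of all probe sets, whereas S100B was higher. The part of these cells in the S100B result was not tested.

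Between the tissues, markers of skeletal muscle moved the same way as S100A1. All 10 measured were lower in epithelial tissue of normal teats (median difference -5.70), and their mean ranged from 2.96 to 9.56 on epithelial arrays and from 3.28 to 12.48 on mesenchymal arrays. Among mesenchymal samples of normal teats S100A1 did not follow them in order. Animal 1040 had the lowest muscle mean, 3.28, with the highest S100A1, 11.58. Animal 1059 had the highest muscle mean, 12.48, with S100A1 at 10.28. The part of the muscle markers, and that of the adipocyte markers, in the S100A1 and S100A10 results was not tested. None of 9 macrophage, 9 endothelial and 7 smooth muscle markers passed, and 2 of 9 fibroblast markers (ASPN and LUM) were higher in epithelial tissue. Of 6 keratinocyte markers tested, 2 were higher there as well. Among all probe sets 12.9% were higher and 20.6% lower in this comparison.

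S100A4 and S100A9 passed in neither kind of teat. S100A4, known from fibroblasts and leukocytes and as a binder of non-muscle myosin, differed by 0.41 ± 0.62 (SE; adjusted p = 0.64) in normal teats. S100A9 differed by -0.23 ± 0.39 (SE; adjusted p = 0.68). S100PBP was at 5.16 to 5.75 in epithelial tissue and 4.40 to 5.62 in mesenchymal tissue of normal teats, and its difference was 0.32 ± 0.14 (SE; adjusted p = 0.077).

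**Figure D2:**
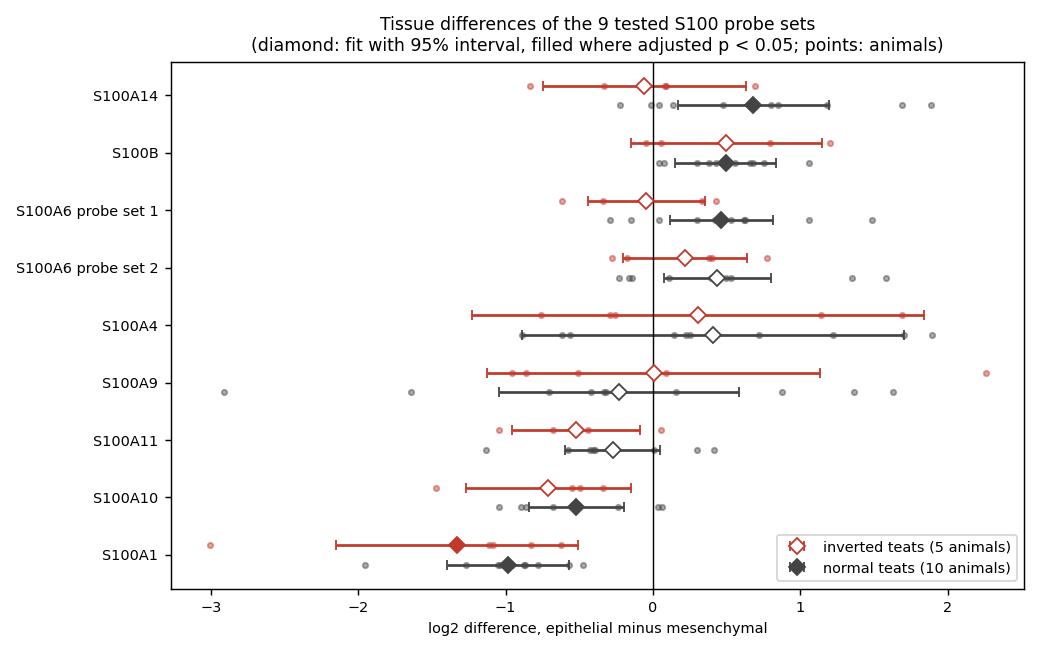
Log2 difference between epithelial and mesenchymal tissue (horizontal axis) for the 9 tested S100 probe sets (rows), with inverted teats above normal teats in each row; diamonds are limma estimates with 95% intervals, filled where the adjusted p was under 0.05, and small points are single animals. In normal teats S100B lies above 0 and S100A1 below 0 in all 10 animals, and for S100A14 and the first S100A6 probe set the estimate in inverted teats lies near 0.

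In the inverted teats of the 5 affected animals, S100A1 was again lower in epithelial tissue and was the 1 S100 probe set of 9 that passed. Of all 17108 probe sets tested there, 12.4% passed, 0.848% higher and 11.5% lower. After quantile normalization 2 of the 17108 passed in place of 2115, so the calls in inverted teats depend on the scaling. S100A1 was 10.14, 9.91, 9.88, 9.55 and 7.83 in epithelial tissue, against 10.76, 11.0, 10.71, 10.66 and 10.83 in mesenchymal tissue (animals 963, 964, 1037, 1059 and 1103). The 2 sets did not overlap. The difference was -1.33 ± 0.37 (SE; limma adjusted p = 0.041), and without the epithelial array of animal 1103 it was -0.92 ± 0.15 (SE; adjusted p = 0.035). It did not pass with any 1 of the 5 animals left out (-1.51 to -0.91, adjusted p 0.058 to 0.12) or after quantile normalization (-0.89, adjusted p = 0.17).

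S100A10 was 12.13, 11.55, 12.17, 11.37 and 11.17 in epithelial tissue of inverted teats and 12.67, 12.24, 12.67, 11.70 and 12.64 in mesenchymal tissue. The epithelial value was the lower one in 5 of 5 animals, with a difference of -0.71 ± 0.26 (SE; adjusted p = 0.092), and it passed once animal was a random block (adjusted p = 0.039) or a fixed term (adjusted p = 0.047). S100B differed by 0.50 ± 0.30 (SE; adjusted p = 0.28), the same size as in normal teats, and by 0.24 without the array that stood apart.

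S100A14 and both S100A6 probe sets did not pass in inverted teats. S100A14 was 8.89, 9.02, 8.88, 8.40 and 7.52 in epithelial tissue and 8.81, 9.35, 8.18, 8.32 and 8.35 in mesenchymal tissue, a difference of -0.06 ± 0.31 (SE; 95% interval -0.75 to 0.63). Without the array that stood apart it was 0.20. The brighter S100A6 probe set differed by -0.05 ± 0.18 (SE; 95% interval -0.44 to 0.35) and the second by 0.22 ± 0.19 (SE; 95% interval -0.20 to 0.64). The mesenchymal keratin mean in these teats was 5.19 to 11.14, and no luminal marker passed (0 of 11, median difference 0.51). Of the 11, 9 had differences above 0. Of 6 keratinocyte markers tested there, 0 were higher and 1 was lower in epithelial tissue. Among all probe sets 0.848% were higher and 11.5% lower, so few calls are to be read from either list.

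Whether the tissue difference itself changed with inversion was tested within the affected animals as an interaction. The tissue difference in inverted teats minus that in normal teats was -0.70 ± 0.50 for S100A14 (SE; 95% interval -1.73 to 0.33) and -0.39 ± 0.32 for the brighter S100A6 probe set (SE). Neither passed (limma adjusted p = 1.0 for each). For the second S100A6 probe set it was -0.01 ± 0.33, for S100A1 -0.51 ± 0.47 and for S100B 0.08 ± 0.38 (SE). Without the array that stood apart it was -0.44 ± 0.49 for S100A14, -0.10 ± 0.37 for S100A1 and -0.17 ± 0.34 for S100B (SE), and these did not pass either. None of 18783 probe sets passed this test (percentage called 0).

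The central question of the design is whether inverted teats differ from normal ones and whether affected animals differ from non-affected ones. No S100 probe set passed in any of these 6 comparisons, and neither did any other of the 17661 probe sets tested in epithelial or the 17839 tested in mesenchymal tissue (percentage called 0 in each). At an unadjusted p under 0.05, 78 to 484 probe sets would have passed in a comparison, and 0 of the 9 S100 probe sets among them. S100A1 was higher in epithelial tissue of affected than of non-affected animals by 0.49 ± 0.36 (SE; limma unadjusted p = 0.19). The array that stood apart is no part of that contrast. Leaving it out kept the 0.49 and lowered the SE to 0.22 (limma unadjusted p = 0.037, adjusted p = 0.9994). Among the non-affected values, animal 950 at 8.46 lay far below the others (9.57 to 9.83). The intervals below come from fits without an animal term, although inverted and normal teats of affected animals came from the same animals. In those comparisons they include the spread between animals. Mesenchymal S100B differed by -0.03 to 0.12 within the 5 animals (SD 0.07), beside an interval of -0.54 to 0.64. Mesenchymal S100A4 differed by -2.01 to 1.16 (SD 1.22), beside -2.09 to 1.95. For S100A10 the 6 estimates lay between -0.10 and 0.11 with interval bounds from -0.57 to 0.65, and for S100B between -0.17 and 0.14 with bounds from -0.68 to 0.65. For S100A4 the estimates lay between -0.16 and 0.26, but the bounds went from -2.09 to 2.29.

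**Figure D3:**
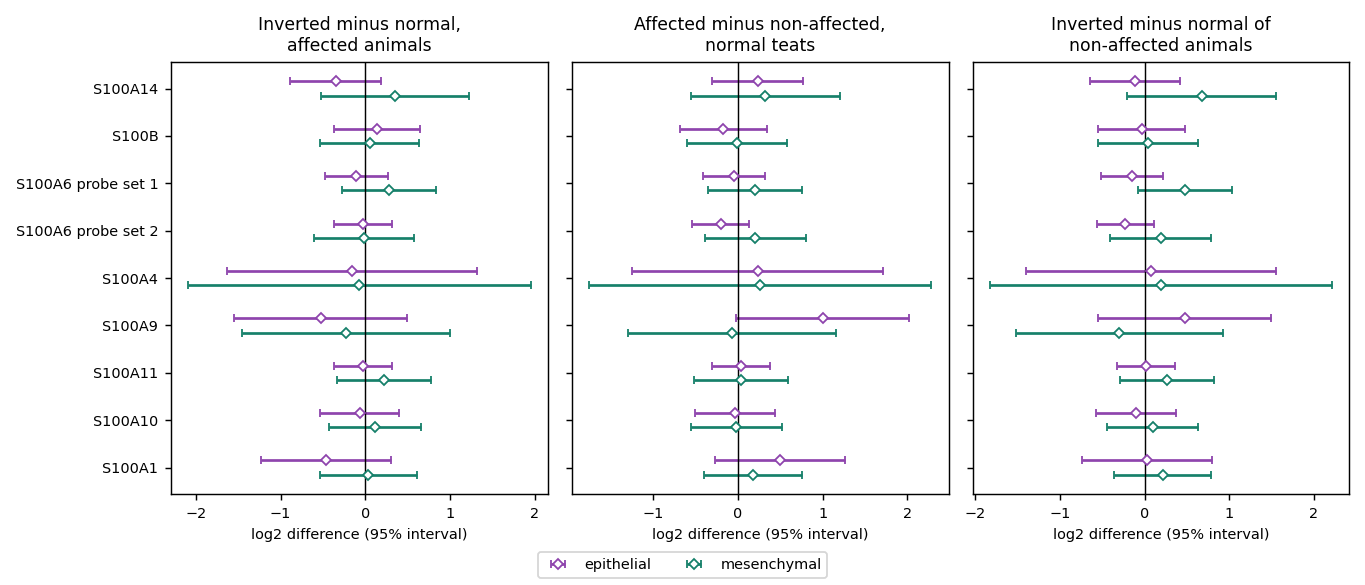
Log2 differences with 95% intervals (horizontal axes) of the 9 tested S100 probe sets (rows) in the 3 comparisons between kinds of teat (panels), in epithelial tissue above mesenchymal tissue. The interval includes 0 for all probe sets, and it is widest for S100A4, with bounds from -2.09 to 2.29.

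In epithelial tissue, inverted minus normal teats of affected animals gave differences from -0.53 (S100A9) to 0.14 (S100B). Without the array that stood apart, the difference of S100B was -0.12, that of S100A1 was -0.06 in place of -0.47, that of S100A14 was -0.09 in place of -0.35, and that of S100A4 was -0.59 in place of -0.16. Against non-affected animals, epithelial tissue of inverted teats then differed by -0.29 for S100B, 0.43 for S100A1 and -0.36 for S100A4, in place of -0.04, 0.02 and 0.07. In mesenchymal tissue the same comparison ran from -0.23 (S100A9) to 0.35 (S100A14). Inverted teats minus normal teats of non-affected animals gave at most 0.67 ± 0.41 (SE; adjusted p = 1.0 in limma), for mesenchymal S100A14. Its values there were 8.81, 9.35, 8.18, 8.32 and 8.35 in inverted teats, against 8.74, 8.85, 7.46, 7.26 and 7.34 in non-affected animals, and the 2 sets overlapped through animals 950 and 957. The mesenchymal keratin mean of those groups ran from 5.19 to 11.14 in inverted teats and from 2.63 to 10.65 in non-affected animals, and its part was not tested. In the same comparison the brighter S100A6 probe set was 12.64, 12.64, 12.34, 12.09 and 12.11 in inverted teats, against 11.68, 11.93, 11.99, 12.07 and 11.75 in non-affected animals. These sets did not overlap, the only such case among the 9 probe sets and 6 comparisons. How many of all probe sets separated in this way was not counted, so nothing particular to S100A6 is read from it. The difference of 0.48 ± 0.26 (SE; limma adjusted p = 1.0) did not pass.

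S100A9 gave the widest of the differences between affected and non-affected animals. In epithelial tissue of normal teats it was 4.95, 5.28, 7.27, 4.56 and 4.81 in affected animals (963, 964, 1037, 1059 and 1103) and 4.70, 5.15, 3.39, 4.33 and 4.30 in non-affected animals. It exceeded the 30th percentile on 1 of these 5 non-affected arrays. In affected animals it did so on 4 of 5 epithelial arrays of normal teats and 4 of 5 of inverted teats. Most non-affected values thus lay near background, and the probe set passed the filter for epithelial tissue mainly through affected animals. Animal 1037 lay far above the non-affected range and animal 964 just above it, and in the inverted teat of animal 1037 the epithelial value was 5.10. The difference of 1.0 ± 0.48 (SE; unadjusted p = 0.055, adjusted p = 1.0) was 0.53 ± 0.39 without animal 1037 and 0.98 to 1.20 without any other animal except 1040, where it was 0.75. In mesenchymal tissue the same contrast was -0.07 ± 0.58 (SE), and the test of the difference between tissues gave 1.07 ± 0.79 (SE; adjusted p = 1.0).

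The other alarm proteins gave dim signals. S100A8, which pairs with S100A9 to form calprotectin, was 3.76, 3.87, 3.36, 1.83 and 3.56 in epithelial tissue of inverted teats, 4.49, 2.68, 4.42, 3.66 and 4.40 in normal teats of affected animals, and 3.49, 3.93, 3.81, 2.01 and 3.48 in non-affected animals. It therefore lay under the 30th percentile on every epithelial array. In mesenchymal tissue it ranged from 3.75 to 4.80 and exceeded that mark on 2 of 15 arrays. When the filter on dim signals was dropped, S100A8 was lower in epithelial tissue of normal teats by -0.76 ± 0.25 (SE; limma adjusted p = 0.034), a difference between signals that both lie near background.

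S100A12, or calgranulin C, ranged from 0.18 to 4.66 on epithelial arrays and from 2.27 to 5.11 on mesenchymal arrays. It exceeded the mark on 4 mesenchymal and 0 epithelial arrays, and without the filter its tissue difference in normal teats did not pass (-0.88 ± 0.42, SE, adjusted p = 0.13). S100A9, by contrast, exceeded the mark in 9 of 15 epithelial and 10 of 15 mesenchymal samples. Only 1 of the 9 epithelial samples came from a non-affected animal. S100G, a vitamin D-dependent calcium carrier of intestine and uterus, reached at most 4.68 with its first probe set and 3.36 with its second, which was at 0 on 7 arrays. For S100A8, S100A12 and S100G, a low array signal does not show that the transcript was absent.

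**Figure D4:**
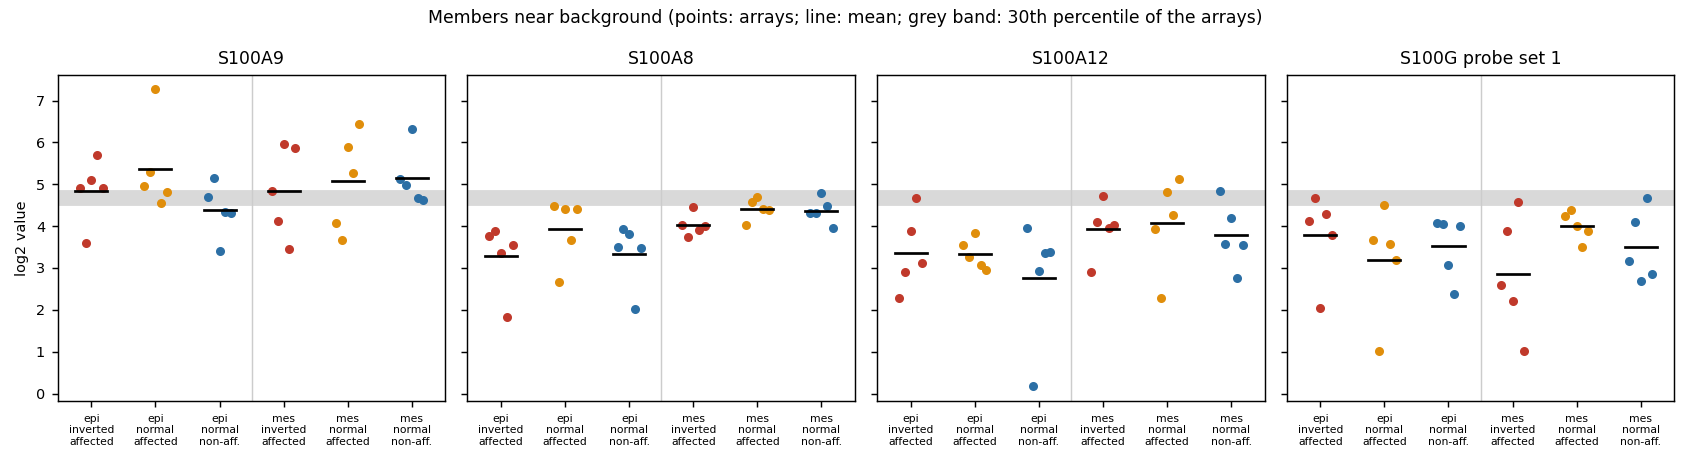
Log2 values of S100A9, S100A8, S100A12 and the first S100G probe set (vertical axis) in the 6 groups (horizontal axes), epithelial groups left of mesenchymal groups; points are arrays, lines are means, and the grey band spans the 30th percentiles of the arrays (4.49 to 4.84). S100A9 lies on both sides of the band, with animal 1037 at 7.27 in epithelial tissue of its normal teat, whereas S100A8, S100A12 and S100G lie mostly below it.

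Of 5 neutrophil markers measured, 2 or 3 exceeded the mark on every array, while ELANE and ITGAM were below it on all 30 arrays. The other 3 could be tested, and 1 of them, PRTN3, was higher in epithelial tissue of normal teats (0.38 ± 0.15, SE, adjusted p = 0.048). Of all probe sets 12.9% were higher there. The remaining 2 had differences below 0 and did not pass, and the median difference of the 3 was -0.03. The 5 averaged 4.6 to 5.75 on epithelial and 5.01 to 5.81 on mesenchymal arrays of normal teats, and CD14, a receptor of monocytes and macrophages, exceeded the mark on 28 arrays. None of these markers passed between affected and non-affected animals.

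A list of 19 inducers and regulators of S100A8, S100A9 and S100A12 was also followed. Of its 15 measured genes, 5 were too dim to be tested: IL6, TNF, IL17A, CXCL8 and NFKB1. Of the 10 tested, 0 were higher and 3 were lower in epithelial tissue of normal teats, beside 12.9% and 20.6% of all probe sets, and the 3 were all transcription factors: CEBPA at -2.23 ± 0.42, CEBPB at -1.22 ± 0.18 and STAT3 at -0.23 ± 0.08 (SE). The list's median difference was -0.20, against -0.06 for all probe sets. CEBPA and CEBPB are also factors of fat cell differentiation, and the 7 adipocyte markers were lower in the same comparison. Their part was not tested.

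Among 21 measured receptors and binding partners of S100 proteins (of 29 listed), 1 was higher and 4 were lower in epithelial tissue of normal teats, with a list median of -0.10. Of all probe sets 12.9% were higher and 20.6% lower there. The receptors AGER (-0.19 ± 0.15) and TLR4 (0.03 ± 0.16) did not pass. ALCAM, an adhesion molecule, was higher by 2.07 ± 0.41, and ANXA5, ANXA2 and the calpain subunit CAPNS1 were lower, by -0.57 ± 0.16, -0.45 ± 0.12 and -0.40 ± 0.13 (SE; limma adjusted p = 0.010, 0.0098 and 0.021). The fourth was CAPN2, the catalytic subunit that pairs with CAPNS1. ANXA1, the partner of S100A11, was at 0.07 ± 0.14 and did not pass.

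ANXA2, the membrane partner of S100A10, thus had a tissue difference near that of S100A10 itself (-0.45 and -0.52). In inverted teats ANXA2 differed by -0.73 ± 0.24 (SE; adjusted p = 0.068), beside -0.71 for S100A10. In that comparison 1 partner was higher (ALCAM at 1.59) and 2 were lower (ANXA5 at -0.70 and BSG at -0.53), of 20 tested. Of all probe sets 0.848% were higher and 11.5% lower there, and after quantile normalization 2 of 17108 passed.

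Other small EF-hand proteins passed in both directions. Of 9 tested, RCN1 and CALM2 were higher in epithelial tissue of normal teats (0.64 ± 0.16 and 0.57 ± 0.18), and CALM3, CIB1, CALU and PDCD6 were lower, by -0.65, -0.64, -0.42 and -0.38. Thus 2 were higher and 4 lower, beside 12.9% and 20.6% of all probe sets, and their median difference was -0.34. In inverted teats 0 were higher and 4 were lower, again CALM3, CIB1, CALU and PDCD6, beside 0.848% and 11.5% of all probe sets. After quantile normalization 2 of all 17108 probe sets passed there. Of 20 genes of the epidermal differentiation complex listed, which adjoins the S100 cluster, IVL alone was measured, and it did not pass (0.43 ± 0.22, SE). No gene of these lists passed in any comparison of teat kind or affection status.

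Some S100 genes also differed between animals within the groups. This was tested with an F test of animal in a fit of group and animal over all 30 arrays, which was added after the data had been seen. S100A4 (limma adjusted p = 0.00079), S100B (adjusted p = 0.013) and S100A10 (adjusted p = 0.038) passed, 3 of the 9 S100 probe sets, against 21% of the 18783 probe sets tested. S100A4 and S100B passed in each fit that left out 1 animal, S100A10 did not pass without 950, 963, 964, 1037 or 1059 (adjusted p up to 0.21), and with normal teats alone S100A4 was the 1 S100 probe set of 159 probe sets that passed (adjusted p = 0.036). Without the array that stood apart, S100A1 passed too (adjusted p = 0.0082).

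S100A4 had the widest spread between animals of the S100 genes detected on all arrays, from 7.09 to 12.12. Its 4 values in animal 1103 were 11.26 and 11.50 in epithelial tissue and 10.12 and 12.12 in mesenchymal tissue, with the inverted teat first in each pair. In animal 1037 they were 10.41 and 10.57 in epithelial and 10.70 and 11.14 in mesenchymal tissue, and in animal 1059 they were 9.26 and 8.79 against 7.56 and 7.09. Animals 1103 and 1037 thus lay above animal 1059 in every tissue and teat. Animals 963 (8.89 and 8.21 in epithelial, 9.14 and 7.99 in mesenchymal tissue) and 964 (7.81 and 9.34, against 8.57 and 8.12) were also low.

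Among non-affected animals, S100A4 was 10.31 in epithelial and 11.20 in mesenchymal tissue of animal 1040, and 7.86 and 7.14 in those of animal 957. The remaining 3 were at 9.65 and 9.40 (950), 9.13 and 8.98 (1058) and 10.31 and 8.42 (1109). High and low animals therefore occurred in both affection groups. The means over an animal's arrays ranged from 7.50 (957) to 11.25 (1103), a span of 3.75, whereas the values within 1 animal ranged over 0.15 to 2.17. The German Landrace animals 957 and 963 had means of 7.50 and 8.56 and the Pietrain crosses 1103 and 1109 means of 11.25 and 9.37, and the part of breed was not tested.

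**Figure D5:**
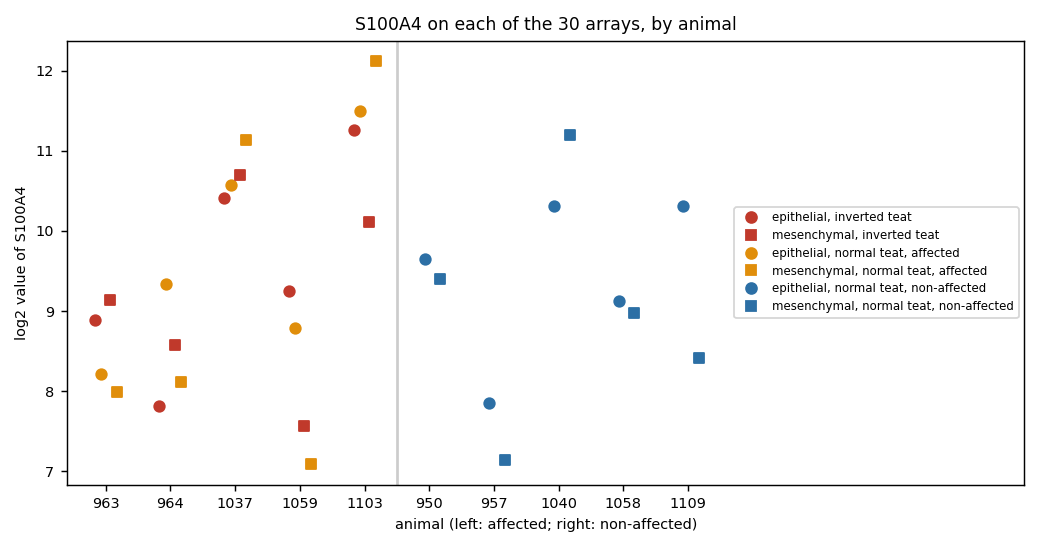
S100A4 log2 values (vertical axis) of all 30 arrays by animal (horizontal axis), affected animals left of non-affected ones; circles are epithelial and squares mesenchymal samples, and colours give the kind of teat. Animals 1103, 1037 and 1040 lie at 10.12 to 12.12 in both tissues, while animal 957 lies at 7.14 to 7.86.

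After group means were subtracted, the gene most like S100A10 over the 30 arrays, among 6254 genes compared, was ANXA2 (r = 0.87), followed by ANXA5 (0.86), NME1 (0.84), UCP2 (0.81) and CCL5 (0.80). For S100A14 these were CYP2C91 (0.94), SLC9A3R1, CXCL16 and EZR (0.88 each) and SHTN1 (0.87). For S100B they were RHOB (0.87), MCAM (0.86), KCTD10 (0.84), MARVELD1 and STOM (0.83 each), and for S100A1 RHBDD2 (0.82), ADRB1 (0.81), TMED3 (0.80), MFAP2 and COL17A1 (0.78 each). The genes near background had weaker likeness: S100A9 reached 0.75 with GCHFR, SAT2 and CBR3, S100A12 reached 0.69 with TANGO2, and S100A8 reached 0.61 with BOP1. S100A8 and S100A12 had r = -0.29 with each other. The arrays share animals and RNA samples, and these values describe the 30 arrays only.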

How the data were processed

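The authors deposited 1 table of log2 signals for 24123 probe sets on 30 Affymetrix Porcine Genome arrays, with GCOS 1.1.1 and PLIER named in the submitters' processing notes without their roles; the log2 base was inferred from the deposited values, and how the arrays were scaled is not given in the sources used here. Genes were named from the platform annotation. Control probe sets (124) were left out. Linear models were fitted with limma 3.58.1 in R 4.3.3, with empirical Bayes moderation, on probe sets above the 30th percentile of their array on at least 5 arrays of a fit. Each tissue comparison was fitted on normal or inverted teats alone, each teat and status comparison within 1 tissue, and interactions on all 30 arrays. P-values were adjusted by Benjamini-Hochberg over all probe sets tested, with a threshold of 0.05. The tests were tried on simulated data.

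The study is an array study, so the number of animals limits the precision. Replicates were separate animals. Tissues and teats of the same animal share an animal number, so the numbers pair samples. Deviations of same-numbered samples from their group means correlated at 0.245 to 0.538 between epithelial samples of inverted and normal teats, and at 0.141 to 0.668 between mesenchymal ones. Between tissues they ranged from -0.026 to 0.69. The main fits had no animal term, and fits with it are alternatives, as are quantile normalization, other filters and leaving out each animal.

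The S100 members and the other gene lists were chosen with earlier results of these data known. All S100 probe sets were described. From each list, genes past the threshold with the largest difference were named, up to 3 in a direction, besides AGER, TLR4, ANXA1, ANXA2 and defining cell markers; CAPN2, PDCD6 and the inducers at background were named after their values were seen. Gene coordinates were used only to place the RefSeq S100 genes in order with their neighbours, and sequences were not used here. The 4 probe sets that list S100A16 together with another gene were not analysed here.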

Additional observations from a re-analysis of the deposited data

Results flagged for a closer look

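Of 84 sets of 5 arrays (14 probe sets in 6 groups), 8 had 1 array far from the other 4 by Dixon's criterion, which chance meets in about 1 of 20 sets. Of these, 3 concerned S100A1 at low values: 7.83 in epithelial tissue of the inverted teat of animal 1103 (others 9.55 to 10.14), 8.46 in epithelial tissue of non-affected animal 950 (others 9.57 to 9.83), and 10.28 in mesenchymal tissue of the normal teat of animal 1059 (others 10.80 to 10.96). S100A11 was 10.38 in mesenchymal tissue of the inverted teat of animal 1059 (others 11.18 to 11.37). S100A9 was high, at 7.27, in epithelial tissue of the normal teat of animal 1037 (others 4.56 to 5.28). The remaining 3 were low values near background: S100A8 at 1.83 in epithelial tissue of the inverted teat of animal 1059 (others 3.36 to 3.87) and at 2.01 in that of non-affected animal 1058 (others 3.48 to 3.93), and S100A12 at 0.18 in epithelial tissue of non-affected animal 957 (others 2.92 to 3.95).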

How the results depend on the processing

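In normal teats the number of S100 probe sets that differed between tissues was 4 to 6 under the other settings and 2 to 6 when 1 animal was left out, with 2 without animal 1109, 3 without 957, 1040, 1058 or 1059, and 6 without 963. S100A1 and S100A10 were called without any 1 animal. In inverted teats, where 1 was called, the number was 2 with the replicate block (animal as a random block or as a fixed term), and 0 with quantile normalization, without a filter, without variance moderation and without any 1 animal (0 to 0). The animal term made the count in normal teats 6 (random) or 5 (fixed), and in all teat, status and interaction comparisons it stayed at 0. Quantile normalization left 2 of 17108 probe sets called in inverted teats, against 2115 without it, moved the median of all probe sets there from -0.12 to 0.01, and in normal teats changed the share of calls that were higher in epithelial tissue from 38.5% to 54.8%. It moved the S100 calls to 4 higher and 1 lower, with S100A10 lost and the second S100A6 probe set gained. The test of animals called 1 S100 probe set with normal teats only, and 2 to 5 with 1 animal left out, 5 of them without animal 1103. The cause of these changes was not tested. No called S100 result reversed. The number of animals and dim signals limit what can be said of S100A8, S100A12 and S100G.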
